A study of Mus musculus with 12 samples.

Results

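Regulatory T cells (Treg) were compared with conventional T cells (Tconv) of the spleen of normal mice across all genes. The comparison used the 4 normal spleen libraries of a series of 12 mouse RNA sequencing libraries, taken by their labels: 2 of CD4+GFP+ Treg and 2 of CD4+GFP- Tconv. Of 24062 genes in the count table, 13509 had enough reads to be tested. All mice were C57BL/6 by label, and the normal mice carried no tumour. The 8 other libraries, also pairs of Treg and Tconv, came from tumour-bearing (TB) mice, from the spleen and from the tumour, 3 weeks after they had received 500000 cells intravenously of TC-1, a transplantable mouse lung tumour line. They served to estimate the spread per gene and to test where the normal spleen difference was not the same elsewhere. CD4+ cells were enriched by removing other cells and then sorted by GFP. Which reporter allele drives the GFP, the age of the mice and whether 2 replicates stand for 2 animals are not given in the sources used here. The p values therefore measure the spread between these samples, with n = 2 libraries for every group.

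Treg are CD4+ T cells that restrain immune responses and depend on the transcription factor Foxp3. They carry the high-affinity receptor for interleukin 2 (IL-2) but make little IL-2 themselves, so they rely on IL-2 from other cells. In spleen, a part of them recirculates with the homing receptors of naive T cells and another part has an activated, tissue-homing phenotype. Foxp3 acts together with partners such as NFAT, which carries T cell receptor signals, to raise some genes and lower others, such as Il2.

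Levels are in CPM, a gene’s read count relative to the total of its library after TMM scaling, given for library 1 and library 2 of each group. A difference is a log2 fold change of Treg over Tconv ± its standard error, from edgeR's quasi-likelihood test, and a gene is called where the Benjamini-Hochberg adjusted p over all tested genes is below 0.05. Library totals in normal spleen were 23358623 and 22152486 counts for Treg and 20019956 and 21456749 for Tconv, and across genes the log2 levels of replicates correlated at 0.995 for Treg and 0.994 for Tconv, values from genes, which are not independent replicates. The variance between replicates was 4.94 times that of counting alone for Treg and 3.56 times for Tconv (mean chi-square per gene). The median chi-square per gene was 1.19 for Treg and 0.981 for Tconv. Counting alone gives a median well below its mean, so these medians are not multiples of counting. Because sorted cells were sequenced in bulk, fewer cells of a type and less RNA per cell cannot be told apart.

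Foxp3 (mm10 chrX:7573644-7595245, plus strand) checked the sort. It had 989 and 1042 CPM in Treg against 18.1 and 19.6 CPM in Tconv, a difference of 5.75 ± 0.14, adjusted p = 8.50e-11. The Treg libraries lay far above the Tconv libraries, which held 356 and 412 Foxp3 counts. Its annotated exons (GENCODE vM21) overlap Ccdc22 on the other strand over 12.9% of their length and Flicr on the same strand over 18.6%, and the library kit keeps the strand by label, but no label says whether the counting used it. Other described genes with over 10% of their exonic length shared with a neighbour are Sox4, S100a4, Il2rg, Hopx, Tnfrsf18, Ebi3, Dusp5, Xcl1, Syp, Csf1r, Ptger4, Pim1, Penk, Lef1, Gpr15, Icam1, Nfkb2 and Rgs16, and reads of such pairs may not be told apart.

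The gene starts shown next are those of 3 genes that were much higher in Treg, Foxp3, Il2ra (the IL-2 receptor alpha chain) and Ctla4 (an inhibitory receptor), and of Igfbp4, a gene of naive T cells that was much lower. Each window runs 250 bases before to 50 bases after the start in RefSeq (GRCm38.p6, plus strand, written 5′ to 3′). Capitals mark the NFAT core motif GGAAA or its reverse complement TTTCC.
Foxp3 (chrX:7579426-7579725, the first of 2 starts in the table): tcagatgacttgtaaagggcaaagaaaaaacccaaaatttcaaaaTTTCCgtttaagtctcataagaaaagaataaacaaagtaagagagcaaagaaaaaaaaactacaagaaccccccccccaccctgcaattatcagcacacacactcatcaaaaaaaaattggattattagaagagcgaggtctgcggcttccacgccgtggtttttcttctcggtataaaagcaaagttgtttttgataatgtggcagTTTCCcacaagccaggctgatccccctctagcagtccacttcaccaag
Il2ra (chr2:11642542-11642841): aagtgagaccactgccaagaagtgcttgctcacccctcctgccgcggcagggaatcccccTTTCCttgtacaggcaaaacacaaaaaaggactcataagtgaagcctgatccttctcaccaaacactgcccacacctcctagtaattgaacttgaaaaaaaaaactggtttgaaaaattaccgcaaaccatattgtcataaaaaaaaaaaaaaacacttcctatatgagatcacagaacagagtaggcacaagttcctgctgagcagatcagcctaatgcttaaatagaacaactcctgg
Ctla4 (chr1:60908775-60909074): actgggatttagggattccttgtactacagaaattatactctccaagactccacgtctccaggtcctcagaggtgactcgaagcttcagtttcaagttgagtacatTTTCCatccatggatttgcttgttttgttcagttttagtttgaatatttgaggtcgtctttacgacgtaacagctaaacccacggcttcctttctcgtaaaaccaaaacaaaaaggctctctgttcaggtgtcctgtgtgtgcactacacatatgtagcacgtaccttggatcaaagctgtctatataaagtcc
Igfbp4 (chr11:99040994-99041293): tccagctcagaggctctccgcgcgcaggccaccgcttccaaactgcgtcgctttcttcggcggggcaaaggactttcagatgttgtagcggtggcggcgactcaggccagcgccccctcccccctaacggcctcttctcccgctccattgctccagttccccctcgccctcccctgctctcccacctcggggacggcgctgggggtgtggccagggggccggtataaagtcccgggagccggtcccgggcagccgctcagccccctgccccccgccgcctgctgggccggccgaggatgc
The NFAT core occurred 2 times in the Foxp3 window, 1 time each in those of Il2ra and Ctla4, and 0 times in that of Igfbp4. The forkhead core TGTTTAC or its reverse complement GTAAACA, searched on both strands, had 0 matches in all 4 windows. Neither motif overlaps the other in letters. Over all 27025 promoters of the table the NFAT core was present in 61.3% and the forkhead core in 3.55%. Among tested genes with a promoter the shares were 59.5% and 2.54%. The 1086 promoters of genes at least 2-fold higher in Treg held the NFAT core in 59.3% and the forkhead core in 3.13%, and the 343 of genes at least 2-fold lower in 56.6% and 2.62%. A match describes these letters only, and no match says only that they are not in this window.

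Treg differed from Tconv in normal spleen over a large part of the measured genes. Of 13509 genes, 5478 (40.6%) were called, 2950 (21.8%) higher and 2528 (18.7%) lower in Treg. The larger changes were mostly increases: 1500 genes (11.1%) were called with at least a 2-fold increase and 480 (3.55%) with at least a 2-fold decrease. The median over all tested genes was 0, with 90% of genes between −1.32 and 2.60. The libraries of the 2 groups did not overlap for 10039 genes (74.3%). When a change of more than 1.5-fold was required by the test itself, 1864 genes were called, 1391 higher and 473 lower.

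**Figure D1:**
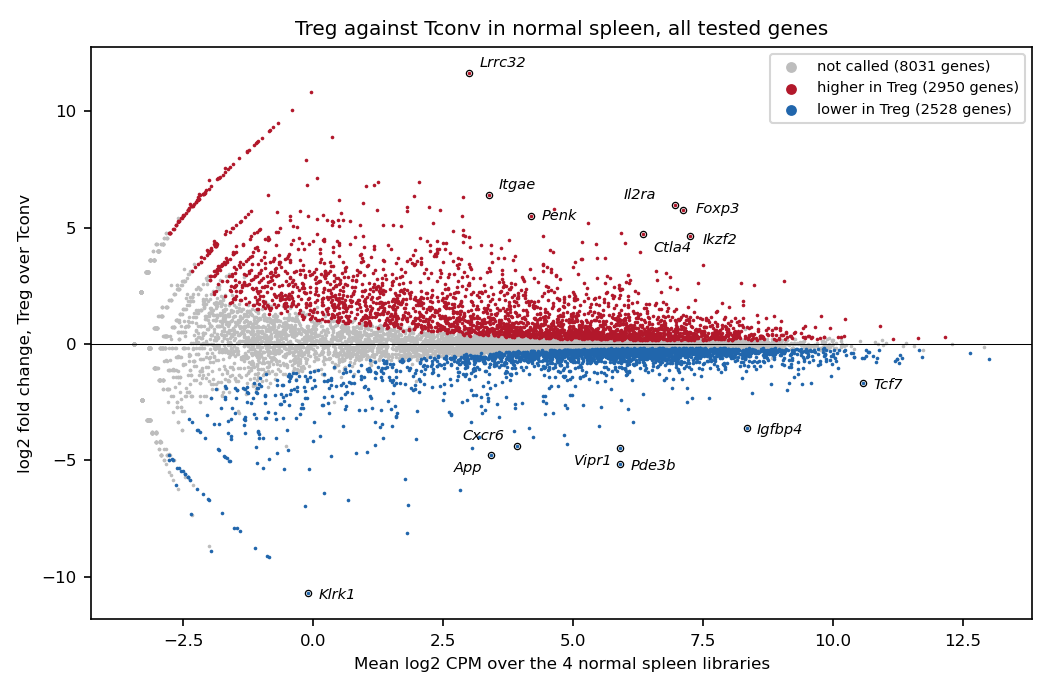
Each point is 1 of 13509 tested genes in normal spleen, with its mean log2 CPM over the 4 libraries on the x axis and the log2 fold change of Treg over Tconv on the y axis; colour shows the call. The named genes stand far from 0 on either side, and the slanted lines at low levels are genes with few or 0 counts in one group, whose fitted values are not bounds.

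The 15 largest increases among well-counted genes included the receptors Itgae and Il2ra and Foxp3 itself. Well-counted means called, with log2 CPM averaging 3 or more over the 4 libraries and no overlap between groups, which held for 3785 genes (1735 higher and 2050 lower) once gene models, antigen receptor segments and pseudogenes were set aside. Itgae, the integrin alpha E (CD103) that binds E-cadherin, had 92.4 and 91.9 CPM in Treg against 0.968 and 1.19 CPM in Tconv and the largest increase (6.40 ± 0.23, adjusted p = 6.94e-10). Il2ra (mm10 chr2:11642807-11693193, plus strand) had 942 and 1029.9 CPM in Treg against 16.0 and 15.6 CPM in Tconv (5.96 ± 0.17, adjusted p = 1.43e-10). Both receptors were far higher in each Treg library than in either Tconv library, where Itgae was near 1 CPM. Lamc1, a laminin chain of the extracellular matrix, had 176 and 193 CPM in Treg against 3.41 and 3.15 CPM in Tconv (5.81 ± 0.27). Penk, the precursor of the enkephalin peptides, had 117 and 128 CPM in Treg against 2.80 and 2.53 CPM in Tconv (5.52 ± 0.15). The cytoskeletal genes Myo1e, Dst and Coro2a were also among the 15 largest increases, at 4.65, 4.49 and 4.36, as was Syp, known as a synaptic vesicle protein, at 4.27. Dusp4, a phosphatase of MAP kinases, had 46.6 and 46.5 CPM in Treg against 2.496 and 2.29 CPM in Tconv (4.28 ± 0.19).

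The 15 largest decreases included the enzyme Pde3b and the receptor Vipr1. Pde3b, which breaks down cyclic nucleotides, had 9.16 and 11.1 CPM in Treg against 369.9 and 343 CPM in Tconv, the largest decrease (−5.14 ± 0.13, adjusted p = 8.50e-11; mm10 chr7:114415281-114539251, plus strand). Vipr1, a receptor for vasoactive intestinal peptide, had 10.7 and 14.6 CPM in Treg against 272 and 291 CPM in Tconv (−4.48 ± 0.14). Dapl1 had 5.81 and 7.48 CPM in Treg against 127 and 135 CPM in Tconv (−4.30 ± 0.12). In these 3 genes every Tconv library was more than 10 times as high as every Treg library. App, the amyloid precursor protein, differed by −4.77 ± 0.26, and Cnga1, a cyclic nucleotide gated channel, by −3.36 ± 0.20. Hs3st3b1, a heparan sulfate sulfotransferase, had 4.73 and 4.496 CPM in Treg against 70.1 and 77.9 CPM in Tconv (−4.003 ± 0.12). Slc16a5, of the monocarboxylate transporter family, had 7.40 and 7.21 CPM in Treg against 110.5 and 108 CPM in Tconv (−3.90 ± 0.10). Lypd6b, Nacc2, Arhgap29 and Mctp2 completed the 15 with Cxcr6, Igfbp4, Tdrp and Tgfbr3, which are described with their gene groups, and lay between −3.59 and −4.47.

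**Figure D2:**
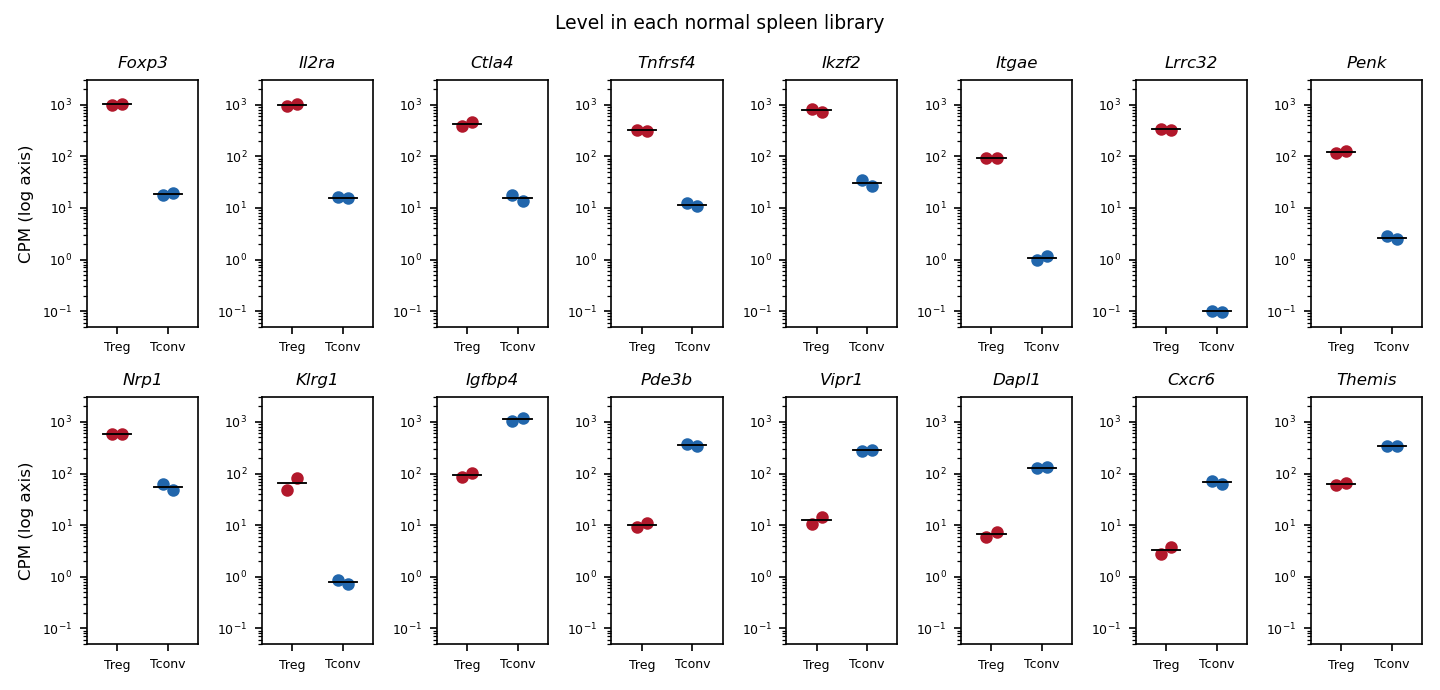
CPM on a log axis in each normal spleen library, Treg on the left (red) and Tconv on the right (blue), for 16 genes; points are libraries and bars the mean of 2. In every panel the groups do not overlap, from Foxp3 and Lrrc32, higher in Treg, to Pde3b and Themis, lower in Treg. The 2 libraries of a group lie close together, less so for Klrg1 in Treg, where library 2 is higher.

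The transcription factors known from Treg were mostly higher in Treg. Of 25 in the list, all tested, 18 were higher and 4 lower, with a median of 1.19 beside 0 over all tested genes. Over all tested genes 21.8% were higher and 18.7% lower, and each list count below is to be read beside these shares. The lists were chosen with earlier results of these data known, so no enrichment can be read from any list count. After Foxp3 came Ikzf2 (Helios), with 807 and 734 CPM in Treg against 34.7 and 26.5 CPM in Tconv (4.66 ± 0.11, adjusted p = 8.50e-11), and its relative Ikzf4 (Eos), with 142 and 114 CPM in Treg against 11.9 and 8.49 CPM in Tconv (3.66 ± 0.15). Both factors of the Ikaros family were an order of magnitude higher in each Treg library. Plagl1, a zinc finger factor, had 18.9 and 18.2 CPM in Treg against 1.94 and 1.33 CPM in Tconv (3.51 ± 0.25), and Nfil3, a basic leucine zipper factor, 32.4 and 26.5 CPM in Treg against 4.18 and 2.77 CPM in Tconv (3.09 ± 0.18). Factors of activated and effector Treg rose by less: Maf by 2.37, Irf4 by 2.13, Hopx by 2.11, Prdm1 (Blimp-1) by 1.84, Rora by 1.32, Batf by 1.19 and Gata3 by 1.07. Irf4 had 115 and 111 CPM in Treg against 28.2 and 23.6 CPM in Tconv, and Gata3 179.9 and 196 CPM in Treg against 91.6 and 87.5 CPM in Tconv. Mxd1, an antagonist of Myc, rose by 1.46 and Rel, an NF-kappaB subunit, by 0.86. Id3, an inhibitor of E proteins, had 132 and 113 CPM in Treg against 51.0 and 49.9 CPM in Tconv (1.28 ± 0.23). The STAT5 genes, which carry the IL-2 signal, rose little, with Stat5a at 0.64 ± 0.06 and Stat5b at 0.34 ± 0.06.

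The 4 that were lower are factors of resting lymphocytes or partners that both cell types use. Bach2, which restrains effector differentiation, had 143 and 135 CPM in Treg against 244 and 245 CPM in Tconv (−0.82 ± 0.12, adjusted p = 1.96e-04). Foxp1, a forkhead factor of naive T cells, had 304 and 303 CPM in Treg against 449 and 434 CPM in Tconv (−0.54 ± 0.09). Cbfb, the common partner of RUNX factors, fell by 0.42 on the log2 scale, with 259 and 254 CPM in Treg against 344 and 344 CPM in Tconv. Foxo1 had 626 and 626 CPM in Treg against 714 and 720.5 CPM in Tconv (−0.20 ± 0.07, adjusted p = 0.0348), and the call was lost without any 1 of the 4 normal spleen libraries, at adjusted p of 0.117 to 0.139, and with scaling by library size (adjusted p = 0.114). Runx1 was not called (−0.16 ± 0.08).

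Nearly all Treg surface receptors in the list were higher. Of 25 in the list, 23 were higher, 22 of them at least 2-fold, and 1 was lower, with a median of 2.72. Over all tested genes 21.8% were higher, 11.1% were higher by at least 2-fold and 18.7% were lower. The libraries of the 2 groups did not overlap for any of the 25, which also held for 74.3% of all tested genes. The IL-2 receptor differed by chain. Il2ra rose by 5.96 and Il2rb, the beta chain, had 1406 and 1335 CPM in Treg against 208 and 209 CPM in Tconv (2.72 ± 0.17, adjusted p = 7.08e-08), while Il2rg, the chain shared by several cytokine receptors, had 1083 and 1158 CPM in Treg and 1155 and 1156 CPM in Tconv (−0.04 ± 0.08, adjusted p = 0.724). The alpha and beta chains were called and the common chain was not.

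Lrrc32 (GARP, mm10 chr7:98489283-98502181, plus strand), which anchors latent TGF-beta on the cell surface, was close to absent from Tconv. It had 344 and 328 CPM in Treg against 0.102 and 0.0953 CPM in Tconv, and the 2 Tconv libraries held 2 counts each. Its fitted difference was 11.65 ± 0.36, adjusted p = 1.96e-10, a size that rests on those few counts. Its mean log2 CPM over the 4 libraries was 2.998, just under the level used for the ranking above. Itgb8, the integrin chain that activates latent TGF-beta, had 43.4 and 29.6 CPM in Treg against 1.68 and 1.19 CPM in Tconv (4.67 ± 0.27), and Nrp1 (neuropilin 1) 591 and 579.8 CPM in Treg against 63.7 and 48.2 CPM in Tconv (3.39 ± 0.14). All 3 genes were many times higher in both Treg libraries.

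Costimulatory receptors of the TNF receptor family rose together. Tnfrsf4 (OX40) had 322 and 315 CPM in Treg against 12.2 and 10.96 CPM in Tconv (4.78 ± 0.13, adjusted p = 1.30e-10). Tnfrsf9 (4-1BB) had 320.2 and 292 CPM in Treg against 19.6 and 20.1 CPM in Tconv (3.95 ± 0.12). Tnfrsf1b (TNF receptor 2) had 774 and 731 CPM in Treg against 120.3 and 120.0 CPM in Tconv (2.65 ± 0.11). Their increases were far larger than the gap between replicates. Tnfrsf18 (GITR) rose by 2.46 ± 0.10 and Cd27, of the same family, by 0.81 ± 0.09. Icos, of the CD28 family, had 423 and 443 CPM in Treg against 122 and 130.2 CPM in Tconv (1.78 ± 0.07).

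Inhibitory receptors and enzymes that make adenosine were higher as well. Ctla4 had 381 and 461 CPM in Treg against 17.7 and 13.5 CPM in Tconv (4.75 ± 0.14, adjusted p = 1.35e-10). Tigit had 220.3 and 167 CPM in Treg against 12.2 and 7.72 CPM in Tconv (4.28 ± 0.24), and Pdcd1 (PD-1) 154 and 124 CPM in Treg against 30.4 and 23.2 CPM in Tconv (2.37 ± 0.18). Lag3 was the least even gene of the group, with 127 and 59.9 CPM in Treg against 22.4 and 12.6 CPM in Tconv (2.43 ± 0.38, adjusted p = 2.28e-04); without Treg library 1 its difference was 1.78, adjusted p = 0.00237. Entpd1 (CD39) and Nt5e (CD73), which turn extracellular ATP into adenosine in 2 steps, had 70.7 and 69.7 CPM in Treg against 6.93 and 7.25 CPM in Tconv (3.31 ± 0.16) and 447 and 399 CPM in Treg against 71.7 and 64.2 CPM in Tconv (2.64 ± 0.09). Both enzymes of this chain were higher in each Treg library. Cd83 rose by 5.20 ± 0.16, the orphan receptor Gpr83 by 3.71 ± 0.12, the folate receptor family member Izumo1r (listed as Folr4) by 2.54 ± 0.14, the tetraspanin Cd81 by 2.44 ± 0.17 and the IL-10 receptor chain Il10ra by 1.71 ± 0.13. Il6ra, the IL-6 receptor alpha chain, was the exception that fell, with 269.6 and 302 CPM in Treg against 386 and 389 CPM in Tconv (−0.44 ± 0.10, adjusted p = 0.00398); without Treg library 1 its adjusted p was 0.0538.

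Genes of suppression and tissue repair were higher in Treg, except Prf1 and Gzma, which act in cytotoxic granules. Of 20 in the list, 19 were tested, 17 were higher and 2 lower, with a median of 2.29. Il10, the anti-inflammatory cytokine, was low in both cell types, with 5.27 and 5.70 CPM in Treg against 0.306 and 0.191 CPM in Tconv (4.44 ± 0.52, adjusted p = 2.21e-05). Ebi3, a subunit of IL-35 and IL-27, had 18.6 and 19.6 CPM in Treg against 0.968 and 0.667 CPM in Tconv (4.54 ± 0.30), whereas Il12a, the other subunit of IL-35, had 0 counts in all 4 libraries, which allows up to 0.0647 CPM in Treg and 0.0739 CPM in Tconv (3 counts over a group, counting error only). Tgfb1, already present in Tconv, had 303 and 289.6 CPM in Treg against 208 and 221 CPM in Tconv (0.46 ± 0.08). Fgl2, a secreted fibrinogen-like protein, had 68.1 and 71.7 CPM in Treg against 6.47 and 6.44 CPM in Tconv (3.44 ± 0.27), and Areg, an epidermal growth factor family ligand, 52 and 32 counts in Treg against 2 and 1 counts in Tconv (adjusted p = 4.75e-05). Il10, Ebi3 and Areg were therefore low even where they were higher. Sdc4, a syndecan, had 41.2 and 41.4 CPM in Treg against 0.255 and 0.381 CPM in Tconv (6.99 ± 0.47), Socs2, a feedback inhibitor of cytokine signalling, 39.1 and 43.0 CPM in Treg against 2.55 and 2.86 CPM in Tconv (3.92 ± 0.22), and Capg, an actin capping protein, 308 and 323 CPM in Treg against 44.3 and 42.3 CPM in Tconv (2.87 ± 0.12). The galectin Lgals1 rose by 1.12 ± 0.19 and the calcium-binding genes S100a4, S100a6 and S100a11 by 2.18, 1.92 and 1.06. Prf1 (perforin) was lower, with 12.7 and 10.4 CPM in Treg against 68.1 and 72.9 CPM in Tconv (−2.61 ± 0.10, adjusted p = 1.80e-09), and so was Gzma (granzyme A), at −2.03 ± 0.47. Gzmb (granzyme B) was higher, with 12.6 and 17.4 CPM in Treg against 1.53 and 0.763 CPM in Tconv (3.72 ± 0.47).

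Receptors and factors of effector and tissue-resident Treg were also higher in Treg of normal spleen. Of 26 in the list, 21 were higher and 3 lower, with a median of 1.83. Klrg1, a lectin-like receptor of differentiated cells, had 48.1 and 81.1 CPM in Treg against 0.866 and 0.715 CPM in Tconv (6.34 ± 0.38, adjusted p = 6.28e-08). Il1rl1 encodes the IL-33 receptor ST2 and had 37.5 and 59.5 CPM in Treg against 0.764 and 1.33 CPM in Tconv (5.51 ± 0.46, adjusted p = 1.10e-06). In both genes Treg library 2 was higher than Treg library 1, and both stood far above Tconv. Tnfrsf8 (CD30) had 20.8 and 19.5 CPM in Treg against 0.102 and 0.238 CPM in Tconv (6.82 ± 0.28, or 7.55 without Tconv library 2, a size that rests on a few Tconv counts). Chemokine receptors of peripheral tissue rose: Ccr8 had 42.2 and 36.2 CPM in Treg against 1.27 and 1.33 CPM in Tconv (4.90 ± 0.20), Ccr6 42.1 and 49.1 CPM in Treg against 3.67 and 3.29 CPM in Tconv (3.71 ± 0.16) and Ccr4 169.9 and 201 CPM in Treg against 24.0 and 23.7 CPM in Tconv (2.96 ± 0.15). Ccr2 rose by 1.72 ± 0.27 in Treg. Swap70, Gpr55, Rgs16, Bhlhe40 and Ahr, the aryl hydrocarbon receptor, rose by 3.68, 2.67, 4.15, 1.94 and 1.96. The adhesion receptor Cd44 had 238 and 251 CPM in Treg against 156 and 135 CPM in Tconv (0.75 ± 0.09).

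The 3 that were lower are Cxcr6, Epas1 and Id2. Cxcr6, the receptor for CXCL16, had 2.80 and 3.78 CPM in Treg against 72.4 and 64.0 CPM in Tconv (−4.37 ± 0.18, adjusted p = 2.85e-09). Epas1, a hypoxia-inducible factor, had 3.85 and 4.09 CPM in Treg against 36.2 and 33.8 CPM in Tconv (−3.14 ± 0.16). Id2, an inhibitor of E proteins, had 37.9 and 39.5 CPM in Treg against 177 and 162 CPM in Tconv (−2.13 ± 0.13). All 3 were lower in both Treg libraries than in either Tconv library. Markers of NK and NKT cells moved with them: of 10, 6 were tested and all 6 were lower in Treg, and their summed level over the 10 was 10.6 and 7.97 CPM in Treg against 56.4 and 54.4 CPM in Tconv. Klrd1 had 6 and 0 counts in Treg against 280 and 295 counts in Tconv, Zbtb16 (PLZF) 0 and 2 counts in Treg against 116 and 133 counts in Tconv, and Klrk1 0 and 0 counts in Treg against 191 and 195 counts in Tconv, at least 147-fold lower in Treg taking 3 counts over the Treg group as the floor, for counting error only. Ncr1 had 0 and 0 counts in Treg against 5 and 4 counts in Tconv, and the NK receptors Klra8 and Klra4 had 0 counts in all 4 libraries. The part of such cells in the lower values of Cxcr6, Id2, Prf1 and other genes they share was not tested.

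Genes of naive T cells and of homing to lymphoid tissue were lower in Treg, though most stayed well counted. Of 24 in the list, 20 were lower, 14 of them at least 2-fold, and 2 were higher, with a median of −1.29. Igfbp4 (mm10 chr11:99041244-99054392, plus strand), an insulin-like growth factor binding protein, had 85.4 and 100.3 CPM in Treg against 1053 and 1215 CPM in Tconv (−3.61 ± 0.10, adjusted p = 1.30e-10). Tdrp had 12.7 and 13.9 CPM in Treg against 151 and 152 CPM in Tconv (−3.51 ± 0.13), and Rapgef4, an exchange factor activated by cyclic AMP, 8.45 and 10.1 CPM in Treg against 54.9 and 51.9 CPM in Tconv (−2.53 ± 0.13). These are losses to a small share of the Tconv level. The transcription factors of naive T cells fell less. Tcf7 (TCF-1) had 884 and 852 CPM in Treg against 2733 and 2728 CPM in Tconv (−1.65 ± 0.13, adjusted p = 8.42e-07), Lef1 371 and 384 CPM in Treg against 1247 and 1213 CPM in Tconv (−1.70 ± 0.13), and Satb1, an organiser of chromatin, 404 and 445 CPM in Treg against 1359 and 1373 CPM in Tconv (−1.68 ± 0.12). Sox4 fell by 1.30 on the log2 scale.

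Receptors of recirculation followed in part. Ccr7, which guides cells into lymph nodes, had 248 and 242 CPM in Treg against 814 and 809 CPM in Tconv (−1.73 ± 0.08, adjusted p = 5.36e-09). Il7r, the IL-7 receptor alpha chain, had 358 and 475 CPM in Treg against 1001 and 1015 CPM in Tconv (−1.27 ± 0.12). S1pr1, which guides cells out of lymphoid tissue, had 605 and 694 CPM in Treg against 1191 and 1129 CPM in Tconv (−0.84 ± 0.12). All 3 were lower in both Treg libraries, yet stayed well counted there. Klf2, which controls S1pr1, fell by 0.75 on the log2 scale. Art2b and Itga6 were higher, at 0.80 ± 0.12 and 0.22 ± 0.07, and Itga6 lost its call without Treg library 2, Tconv library 1 or Tconv library 2 (adjusted p = 0.190, 0.118 and 0.127). Slamf6 was not called at 0.13 ± 0.07. Actn1 and Cd55 fell by 1.69 and 1.18 on the log2 scale.

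Many helper cytokines were low in both cell types, and 8 of the 13 called ligands were lower in Treg. Of 26 ligands in the list, 22 were tested, 5 were higher and 8 lower, with a median of −0.95, or −0.28 without Tconv library 2 and −0.75 when 3 members without a count in one group and no more than 3 counts in the other are left out. Il2 had 0 and 1 counts in Treg against 20 and 13 counts in Tconv (adjusted p = 6.93e-04). Il21, a cytokine of follicular helper cells, had 1.25 and 0.267 CPM in Treg against 12.7 and 5.77 CPM in Tconv (−3.57 ± 0.51, or −5.08 without Treg library 1, −2.87 without Treg library 2 and −2.89 without Tconv library 1), with Tconv library 1 above Tconv library 2. Cd40lg, the ligand that helper cells offer to B cells, had 25.3 and 27.8 CPM in Treg against 147 and 131 CPM in Tconv (−2.39 ± 0.10, adjusted p = 2.85e-09). Fasl, the death ligand, fell by 1.76, the chemokine Xcl1 by 2.82 and the chemokine Ccl5 by 1.38 on the log2 scale. Il4 was not called, with 6 and 1 counts in Treg against 12 and 16 counts in Tconv, and Il5 and Il9 had 0 counts in all 4 libraries.

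The 5 ligands that were higher are of the TNF family or act on myeloid cells. Csf1, the macrophage growth factor, had 52.4 and 56.2 CPM in Treg against 4.08 and 3.67 CPM in Tconv (3.81 ± 0.11, adjusted p = 1.65e-10). Tnfsf11 (RANKL) had 63.9 and 61.6 CPM in Treg against 17.6 and 16.5 CPM in Tconv (1.88 ± 0.09). Lta, lymphotoxin alpha, had 40.5 and 44.6 CPM in Treg against 18.1 and 18.3 CPM in Tconv (1.22 ± 0.10). In each of these the Treg libraries lay at more than 2 times the Tconv level. Tnf rose by 0.91 ± 0.21 and Ltb, lymphotoxin beta, by 0.36 ± 0.08. Ltb was abundant in both cell types, with 851 and 847 CPM in Treg against 670.4 and 654 CPM in Tconv.

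Transcription factors of the helper lineages did not move one way. Of 18, 5 were higher and 6 lower, with a median of −0.04, or 0.02 with scaling by library size. Tox2 and Tox rose by 2.34 ± 0.31 and 1.07 ± 0.09, and Bcl6, the factor of follicular cells, by 0.59 ± 0.12. Tbx21 (T-bet), of the type 1 lineage, had 16.9 and 10.7 CPM in Treg against 29.1 and 24.1 CPM in Tconv (−0.95 ± 0.20, adjusted p = 0.00240), and Eomes 9.24 and 6.90 CPM in Treg against 25.9 and 21.1 CPM in Tconv (−1.54 ± 0.20). Runx3 fell by 0.70 on the log2 scale and Zbtb7b (ThPOK), the factor of the CD4 lineage, was not called.

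**Figure D3:**
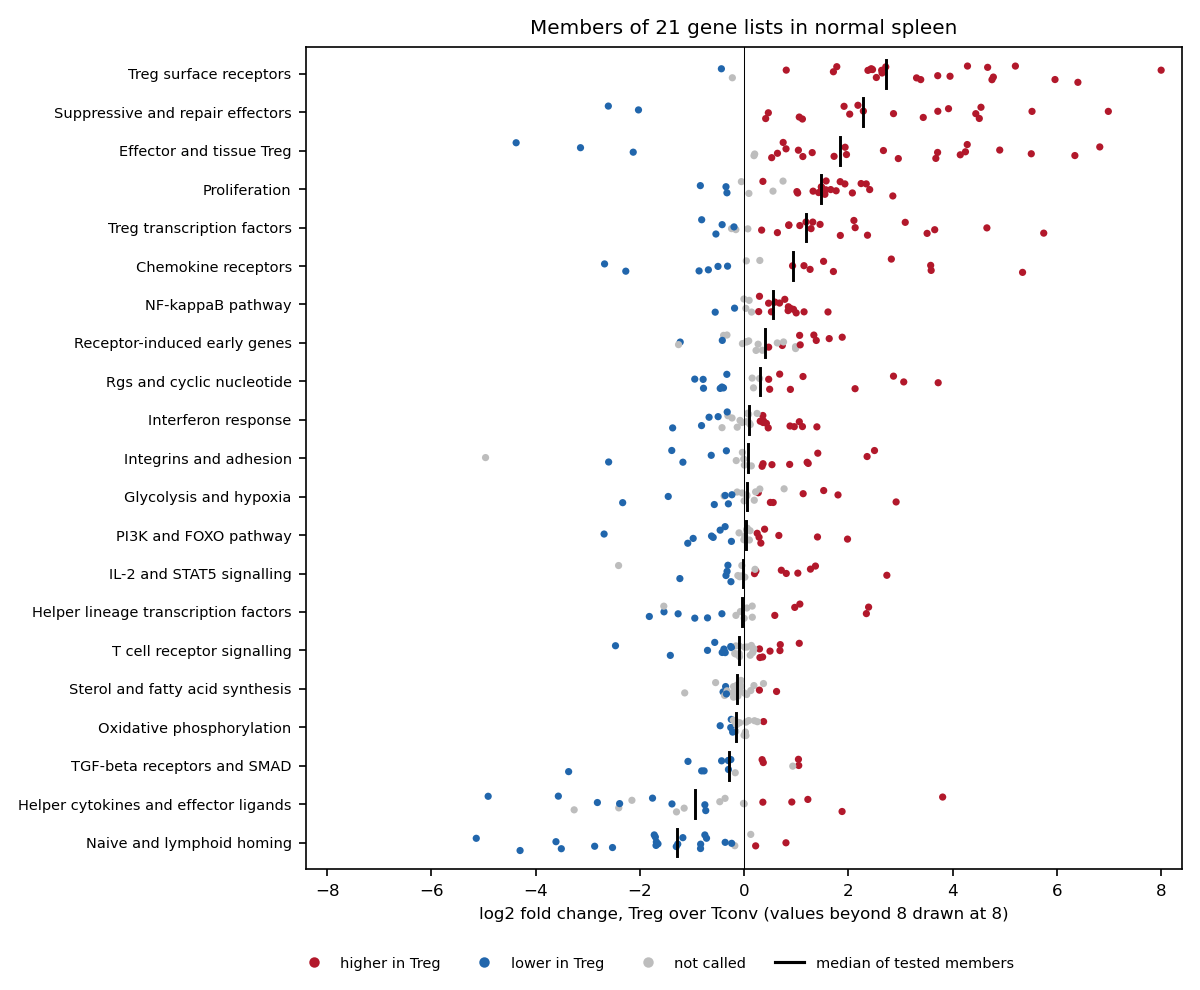
Each point is a tested member of 1 of 21 gene lists, placed by its log2 fold change of Treg over Tconv in normal spleen and coloured by its call; the black bar is the list's median, and lists run from the highest median at the top to the lowest at the bottom. Treg surface receptors lie almost wholly to the right (median 2.72) and naive and homing genes mostly to the left (median −1.29).

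Members of the T cell receptor pathway mostly differed by small amounts. Of 30 members, 7 were higher and 10 lower, with a median of −0.09, beside 21.8% higher and 18.7% lower over all tested genes. The CD3 chains Cd3e, Cd3d and Cd3g were not called, and Cd4 had 1165 and 1185 CPM in Treg against 1550.4 and 1507 CPM in Tconv (−0.38 ± 0.09, adjusted p = 0.00463). Themis, an adaptor that tunes receptor signals in developing and mature T cells, had 58.9 and 64.9 CPM in Treg against 347 and 338 CPM in Tconv (−2.47 ± 0.07, adjusted p = 1.35e-10). Both Treg libraries of Themis lay far below both Tconv libraries. Ubash3b (Sts-1), a phosphatase that dampens the pathway, rose by 1.06 ± 0.07, Nfatc1 by 0.69 ± 0.12 and Cd5, an inhibitor of receptor signals, by 0.50 ± 0.07. Rasgrp1 fell by 0.56 and Dgka by 0.70 on the log2 scale.

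Of 24 early genes that receptor signals induce, 8 were higher, 2 were lower and 14 were not called, a share called close to the 40.6% of all tested genes. Fitted on the 4 normal spleen libraries alone, 13 were higher. The median was 0.41, or 0.25 without Treg library 2. Nr4a1, an orphan receptor that reports receptor signals, had 137 and 137 CPM in Treg against 52.7 and 55.9 CPM in Tconv (1.34 ± 0.12, adjusted p = 2.44e-06). Egr2 had 101 and 78.1 CPM in Treg against 29.4 and 28.4 CPM in Tconv (1.63 ± 0.20), and Nr4a3 and Nr4a2 rose by 1.06 and 1.38. Nr4a1 and Egr2 were higher in each Treg library than in either Tconv library. The phosphatases Dusp1 and Dusp5 rose by 1.88 ± 0.41 and 1.08 ± 0.10. Fosl2 was lower, with 10.2 and 6.81 CPM in Treg against 17.2 and 22.6 CPM in Tconv (−1.23 ± 0.19, adjusted p = 2.31e-04) and Dnajb1, a heat shock gene, fell by 0.42 on the log2 scale, a call lost without Treg library 1 (adjusted p = 0.0636) or Tconv library 2 (adjusted p = 0.0704). Fos and Jun were uneven between replicates and not called: Fos had 16.2 and 69.7 CPM in Treg and 14.3 and 28.7 CPM in Tconv, and Jun 26.6 and 69.9 CPM in Treg and 20.6 and 36.2 CPM in Tconv. Library 2 was the higher one in both groups, and by their descriptions both carry the number 3.

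The NF-kappaB pathway, which TNF family receptors feed, was higher over most of its members but by small amounts. Of 20, 14 were higher, 2 of them at least 2-fold, and 2 lower, with a median of 0.56. Nfkb2, the subunit of the alternative branch, had 168 and 157 CPM in Treg against 71.6 and 74.8 CPM in Tconv (1.15 ± 0.07, adjusted p = 4.40e-08), its partner Relb 81.4 and 79.8 CPM in Treg against 41.7 and 41.9 CPM in Tconv (0.95 ± 0.08) and Nfkb1 643 and 639 CPM in Treg against 404 and 397 CPM in Tconv (0.68 ± 0.07). Several genes of the IkappaB (Nfkbi) family rose with the subunits, Nfkbiz by 1.61, Nfkbid by 1.00, Nfkbie by 0.85 and Nfkbia by 0.84. The inhibitor Tnfaip3 (A20) rose by 0.78. Map3k14 (NIK), the kinase that starts the alternative branch, was lower, with 78.9 and 86.3 CPM in Treg against 118 and 124 CPM in Tconv (−0.56 ± 0.09, adjusted p = 4.07e-04).

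Below the IL-2 receptor, members moved both ways. Of 20, 8 were higher and 5 lower, and the median was −0.02, or 0.01 without 1 member that had a single count in all, and 0.04 with scaling by library size. Cish, a feedback target of STAT5, had 169 and 185 CPM in Treg against 25.7 and 27.3 CPM in Tconv (2.74 ± 0.14, adjusted p = 1.65e-08), and Socs1, of the same family, 64.8 and 57.9 CPM in Treg against 28.8 and 31.2 CPM in Tconv (1.03 ± 0.12). Pim1, a kinase that STAT5 induces, had 336 and 356 CPM in Treg against 138 and 130.1 CPM in Tconv (1.37 ± 0.09), and Bcl2l1 (Bcl-xL), which protects from cell death, 63.0 and 64.3 CPM in Treg against 24.3 and 28.4 CPM in Tconv (1.27 ± 0.11). All 4 were higher in both Treg libraries. Pim2 was lower, with 31.5 and 31.2 CPM in Treg against 74.9 and 72.5 CPM in Tconv (−1.23 ± 0.09, adjusted p = 2.87e-07), and Bcl2 fell by 0.31 on the log2 scale. Jak3, which pairs with the common chain, rose by 0.71 ± 0.11, and Jak1 fell by 0.33.

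The PI3K and FOXO pathway had 7 members higher and 8 lower of 22, with a median of 0.03. Phlpp1, a phosphatase that switches off AKT, had 75.8 and 79.7 CPM in Treg against 19.3 and 20.02 CPM in Tconv (1.98 ± 0.08, adjusted p = 1.35e-09). Tbc1d4, an AKT substrate, rose by 1.41 ± 0.13. Sgk1, a kinase of the same family as AKT, had 16.1 and 20.7 CPM in Treg against 111 and 125 CPM in Tconv (−2.69 ± 0.18, adjusted p = 1.21e-07). The catalytic subunit Pik3cd and the regulatory subunit Pik3r5 were both lower, by 0.63 and 1.08 on the log2 scale, and Pik3ip1, an inhibitor, by 0.98.

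TGF-beta receptors changed in opposite directions. Of 16 members 15 were tested, 4 were higher and 9 lower, with a median of −0.29. Tgfbr1 had 179 and 179.7 CPM in Treg against 83.4 and 90.3 CPM in Tconv (1.05 ± 0.08, adjusted p = 3.71e-07). Tgfbr2 had 449 and 433 CPM in Treg against 901 and 959 CPM in Tconv (−1.08 ± 0.07, adjusted p = 1.45e-07). The coreceptor Tgfbr3 (betaglycan) had 23.4 and 20.9 CPM in Treg against 228 and 229 CPM in Tconv (−3.37 ± 0.11). The type I receptor was thus about 2-fold higher, and the type II receptor and the coreceptor lower. Smad3 rose by 0.37, and Smad2, Smad4 and the inhibitory Smad7 fell by 0.29, 0.43 and 0.77 on the log2 scale. Tgif1, a corepressor, had 63.6 and 60.4 CPM in Treg against 29.4 and 30.8 CPM in Tconv (1.04 ± 0.09).

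Of 18 further chemokine and lipid mediator receptors 17 were tested, 9 were higher and 6 lower, with a median of 0.93. Cxcr5, which leads cells to B cell follicles, had 235 and 173 CPM in Treg against 74.7 and 49.9 CPM in Tconv (1.71 ± 0.23, adjusted p = 7.00e-05), with library 1 the higher one in both groups. Gpr15, a receptor of gut homing, had 19.5 and 24.2 CPM in Treg against 2.09 and 1.57 CPM in Tconv (3.58 ± 0.24), and Ccr3 5.02 and 7.43 CPM in Treg against 0.102 and 0.191 CPM in Tconv (5.34 ± 0.43). The prostaglandin receptors Ptger2 and Ptger4 rose by 2.82 ± 0.11 and 0.93 ± 0.09 and the adenosine receptor Adora2a by 1.26 ± 0.11. Cx3cr1 was lower, with 0.502 and 0.623 CPM in Treg against 3.72 and 3.53 CPM in Tconv (−2.68 ± 0.26).

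Among 20 integrins and adhesion molecules 9 were higher and 5 lower, with a median of 0.07. Icam1 had 117 and 117 CPM in Treg against 41.5 and 46.1 CPM in Tconv (1.41 ± 0.08, adjusted p = 2.43e-08), and Itgav, the alpha V chain that pairs with Itgb8, 149.8 and 135 CPM in Treg against 63.7 and 57.9 CPM in Tconv (1.23 ± 0.10). Alcam and Cd200 rose by 2.36 ± 0.27 and 1.21 ± 0.11. Itgb3, another partner of alpha V, had 103 and 116 CPM in Treg against 294 and 281 CPM in Tconv (−1.39 ± 0.09, adjusted p = 1.28e-07). Among chains that pair with alpha V, Itgb8 was therefore higher and Itgb3 lower. Emb (embigin) fell by 1.18.

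Regulators of G protein and cyclic nucleotide signalling included 9 higher and 7 lower of 19 tested among 20, with a median of 0.30. Rgs1, which blunts chemokine receptor signals, had 160.0 and 195 CPM in Treg against 14.9 and 12.01 CPM in Tconv (3.72 ± 0.19, adjusted p = 1.27e-08). The subunits of soluble guanylate cyclase, Gucy1a1 and Gucy1b1 (listed as Gucy1a3 and Gucy1b3), had 49.6 and 37.7 CPM in Treg against 6.37 and 5.63 CPM in Tconv (2.86 ± 0.16) and 9.08 and 8.68 CPM in Treg against 3.72 and 4.39 CPM in Tconv (1.13 ± 0.21). Gnaq, a G protein subunit, rose by 2.13 ± 0.11. The cyclic AMP phosphodiesterases Pde4b, Pde4d and Pde7a were each lower, by 0.78, 0.95 and 0.79 on the log2 scale, in the same direction as Pde3b above.

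Genes of the cell cycle were higher in Treg at low levels. Of 26 in the list, 19 were higher and 3 lower, with a median of 1.48. Mki67 had 56.7 and 83.2 CPM in Treg against 14.8 and 14.7 CPM in Tconv (2.24 ± 0.25, adjusted p = 1.34e-05), and Top2a 46.2 and 46.9 CPM in Treg against 21.9 and 24.3 CPM in Tconv (1.01 ± 0.17). Rrm2, which makes deoxynucleotides, had 19.5 and 20.3 CPM in Treg against 6.27 and 7.15 CPM in Tconv (1.57 ± 0.20), and Kif11, a mitotic motor, 11.7 and 11.3 CPM in Treg against 4.43 and 4.10 CPM in Tconv (1.43 ± 0.23). No Treg library overlapped Tconv for these 4 genes, which also held for 74.3% of all tested genes. The 3 that were lower, Mcm2, Pcna and Stmn1, fell by 0.33, 0.35 and 0.84 on the log2 scale, and Mcm2 and Pcna act in DNA replication. Without Treg library 1 the adjusted p of Pcna was 0.0514.

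Interferon response genes were mixed, with 11 higher and 5 lower of 28 and a median of 0.09. Over all tested genes 21.8% were higher and 18.7% lower. Isg20 had 50.9 and 47.2 CPM in Treg against 24.4 and 20.8 CPM in Tconv (1.12 ± 0.16) and Ifi27l2a 262 and 284 CPM in Treg against 143 and 137 CPM in Tconv (0.96 ± 0.13), whereas Oas2 had 4.22 and 5.12 CPM in Treg against 11.8 and 12.3 CPM in Tconv (−1.37 ± 0.14) and Ifit2 87.9 and 89.2 CPM in Treg against 139 and 143 CPM in Tconv (−0.67 ± 0.08). The group did not move one way.

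Metabolic gene groups had medians near 0. Over all tested genes 40.6% were called. In the main fit the glycolysis and hypoxia list below had a larger share called, and the sterol and oxidative phosphorylation lists had smaller shares. Of 24 genes of glycolysis and hypoxia 23 were tested, 7 were higher and 6 lower (3 lower without Tconv library 2), with a median of 0.05. Hif1a, the hypoxia-inducible factor, had 651 and 585 CPM in Treg against 297 and 268 CPM in Tconv (1.13 ± 0.09, adjusted p = 7.83e-07), the glucose transporter Slc2a3 173 and 179.6 CPM in Treg against 63.9 and 58.4 CPM in Tconv (1.53 ± 0.07), and the lactate transporter Slc16a3 24.0 and 18.3 CPM in Treg against 2.496 and 3.10 CPM in Tconv (2.92 ± 0.21). Pdk1, which keeps pyruvate out of the mitochondria, was lower, with 187 and 180.3 CPM in Treg against 514 and 493 CPM in Tconv (−1.46 ± 0.07, adjusted p = 5.11e-09). Gapdh, Pgk1 and Pgam1 had under 10 CPM and Eno1 had 0 counts in every library. Genes with near-identical copies may lose reads in counting, and these values are uncertain to that extent. Of 26 genes of sterol and fatty acid synthesis, 2 were higher and 3 lower, and Scd2, a desaturase, changed most of those called (0.62 ± 0.10), in a list with a median of −0.14. In that list 6 were lower with DESeq2 size factors and 9 with the 4 normal spleen libraries alone. Of 26 genes of oxidative phosphorylation, 1 was higher and 6 were lower, with a median of −0.15. The 6 lower calls became 0 without Tconv library 2, 1 without Treg library 1, 2 without Treg library 2, 3 with library-size scaling and 12 with the 4 normal spleen libraries alone.

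Most marker genes of other cells were at or near 0, while some were counted in every library. Of 12 B cell markers 10 were found in the count table, 3 were tested and 2 were higher, while Pax5 and Ms4a1 had 0 to 4 counts per library. Cd79b was counted in all libraries, with 20.997 and 25.3 CPM in Treg against 1.32 and 1.38 CPM in Tconv (4.09 ± 0.16), and Cd22 had 16.1 and 11.3 CPM in Treg against 7.23 and 6.10 CPM in Tconv (1.04 ± 0.19). Of 14 dendritic cell markers 10 were tested, 2 were higher and 1 was lower, and the list summed to 176 and 161 CPM in Treg against 75.6 and 79.2 CPM in Tconv. Bst2 had 53.7 and 56.4 CPM in Treg against 51.9 and 51.9 CPM in Tconv and Ccr9 14.4 and 16.7 CPM in Treg against 14.7 and 15.5 CPM in Tconv, and neither was called. Cd74, the invariant chain, had 105 and 85.1 CPM in Treg against 5.25 and 6.29 CPM in Tconv (4.03 ± 0.24), while H2-Aa and H2-Ab1 stayed below 2 CPM in every library. Of 16 macrophage and monocyte markers 15 were tested, 2 were higher and 1 was lower, and 7, 5, 6 and 4 were at 0 in Treg 1, Treg 2, Tconv 1 and Tconv 2, and Lyz2, Csf1r, Adgre1 and C1qa each had under 1 CPM everywhere. Cybb, a subunit of the phagocyte oxidase, had 108 and 86.7 CPM in Treg against 14.2 and 9.87 CPM in Tconv (3.02 ± 0.20) and made up most of that list's sum of 125 and 103 CPM in Treg against 26.7 and 23.5 CPM in Tconv. Of 13 neutrophil markers 12 were found in the count table. Their summed level was 15.7 and 17.4 CPM in Treg and 7.08 and 6.01 CPM in Tconv, nearly all of it Mmp9. The 12 erythroid and platelet markers summed to at most 1.09 CPM. Of 10 stromal and endothelial markers 9 were tested, 1 was higher and 1 lower; Pecam1, which T cells express too, had 221 and 231 CPM in Treg against 327 and 324 CPM in Tconv (−0.53 ± 0.09) and every other member stayed below 1.5 CPM. Of 7 mast cell and basophil markers 3 were tested and 1 was lower, and the list summed to 1.00 and 1.56 CPM in Treg against 3.11 and 3.62 CPM in Tconv. Of 8 markers of gamma delta and innate lymphoid cells 6 were found in the count table, 3 were tested, and 1 was higher. Their list summed to 13.0 and 19.2 CPM in Treg against 4.23 and 4.77 CPM in Tconv. Cd8a stayed below 1 CPM, and Cd8b1 had 19.7 and 22.3 CPM in Treg against 29.0 and 32.3 CPM in Tconv (−0.55 ± 0.10).

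The 2 Treg libraries were close to each other for most genes described. Of 399 tested list members with a mean of at least 10 CPM in Treg, 8 were at least 1.5 times higher in Treg library 2 and 6 in Treg library 1. Among the 8 were Fos, Jun, S100a4, Lgals3, Klrg1, Ccr2 and Il1rl1, and S100a4 had 124 and 207 CPM in Treg library 1 and Treg library 2. The 6 were Lag3, Pou2af1, Rgs16, Tbx21, Tox2 and Bhlhe40, and Rgs16 had 64.6 and 39.3 CPM. In Tconv 4 of 367 members were higher in library 2, Fos, Jun, Cxcr4 and Ddit4, and 1, Lag3, in library 1. Lag3, Fos and Jun were thus uneven in the same direction in both cell types.

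To ask which of these differences are also found in mice with a tumour, the difference between Treg and Tconv in normal spleen was tested against that in TB spleen. The tested value is positive where Treg exceeded Tconv by more, or was lower by less, in normal spleen. It was called for 115 genes (0.851%), 85 positive (0.629%) and 30 negative (0.222%). This count rests on single libraries: it was 63 and 56 without normal Treg library 1 or 2, 59 and 42 without normal Tconv library 1 or 2, 56 and 45 without TB Treg library 1 or 2, 55 without TB Tconv library 2, and 216 and 221 without tumour Tconv library 1 or 2. Among 475 tested members of the lists above, 37 were called (7.79%), 26 positive and 11 negative. The lists were chosen with earlier results of these data known, so no enrichment can be read from this share. Foxp3 was not among them (−0.32 ± 0.18, adjusted p = 0.726), with 1028 and 1004 CPM in Treg against 13.3 and 16.8 CPM in Tconv of TB spleen. The TB spleen Treg and Tconv libraries of Foxp3 lay as far apart as those of normal spleen.

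Several receptors and IL-2 pathway genes were called in this test. Of 25 Treg surface receptors, 9 were called and all 9 were positive. Il2ra, given above for normal spleen, had 726 and 781 CPM in Treg against 42.5 and 65.9 CPM in Tconv of TB spleen, a gap that was larger in normal spleen by 2.17 ± 0.21, adjusted p = 2.64e-04. Treg libraries of normal spleen were higher and Tconv libraries lower than those of TB spleen. The 8 others were Il2rb, called at 1.29 ± 0.22, Tnfrsf4 at 1.24 ± 0.17, Itgb8 at 1.83 ± 0.37, Cd83 at 1.14 ± 0.21, Gpr83 at 1.08 ± 0.16, Nt5e at 0.99 ± 0.12, Ctla4 at 0.97 ± 0.17 and Nrp1 at 0.94 ± 0.18. Tnfrsf4 had 583 and 572 CPM in Treg against 45.3 and 54.1 CPM in Tconv of TB spleen, higher in both cell types than in normal spleen. Of 20 members of the IL-2 and STAT5 list, 4 were called and positive: Bcl2 (1.53 ± 0.09), Cish (1.38 ± 0.19), Socs1 (0.93 ± 0.16) and Bcl2l11, which promotes cell death (0.66 ± 0.10). The calls of Il2ra, Tnfrsf4, Nt5e, Gpr83, Bcl2 and Cish held without any 1 of the 12 libraries. Those of the other 7 genes were lost without 4 to 8 single libraries each: without normal Tconv library 2 the adjusted p was 0.348 for Itgb8, 0.189 for Cd83, 0.145 for Nrp1, 0.127 for Ctla4, 0.102 for Il2rb and 0.0691 for Socs1, and without TB Treg library 2 it was 0.0731 for Bcl2l11. Bcl2 had 207 and 209.9 CPM in Treg against 259.7 and 258 CPM in Tconv of normal spleen, and 240.2 and 219.9 CPM in Treg against 844 and 805 CPM in Tconv of TB spleen, so that Treg was lower by less in normal spleen.

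Among genes averaging 3 or more on the log2 CPM scale in the 8 spleen libraries, Neb (nebulin, a giant protein of muscle thin filaments) had the largest positive value. It had 34.8 and 43.2 CPM in Treg against 1.27 and 1.86 CPM in Tconv of normal spleen, and 90.3 and 119.6 CPM in Treg against 97.1 and 90.6 CPM in Tconv of TB spleen (4.46 ± 0.31, adjusted p = 1.72e-05). The groups were far apart in normal spleen and overlapped in TB spleen. Coro2a, an actin-binding coronin, had 284 and 293 CPM in Treg against 15.5 and 12.7 CPM in Tconv of normal spleen, and 310.1 and 301 CPM in Treg against 160.5 and 162 CPM in Tconv of TB spleen (3.44 ± 0.19). Socs2 (2.76 ± 0.30), Penk (2.04 ± 0.20) and Gucy1a3 (1.99 ± 0.21) followed. On the log2 scale, Treg libraries of normal and TB spleen lay closer together in Coro2a and these 3 genes than Tconv libraries did. The Tconv libraries of normal spleen were lowest. Igfbp4, lower in Treg of both normal and TB spleen, was called at 1.47 ± 0.13, with 35.6 and 31.6 CPM in Treg against 1131 and 1146 CPM in Tconv of TB spleen.

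Among the genes with negative values were several whose Treg level was lower in normal spleen than in TB spleen. Epas1 had 3.85 and 4.09 CPM in Treg against 36.2 and 33.8 CPM in Tconv of normal spleen, and 17.0 and 20.9 CPM in Treg against 25.6 and 33.2 CPM in Tconv of TB spleen (−2.50 ± 0.21, adjusted p = 9.82e-05). Crem, a cyclic AMP responsive factor, had 24.3 and 23.5 CPM in Treg against 14.1 and 11.8 CPM in Tconv of normal spleen, and 101 and 98.4 CPM in Treg against 23.7 and 22.2 CPM in Tconv of TB spleen (−1.24 ± 0.13). Rgs2, a regulator of G protein signals, had 19.4 and 21.5 CPM in Treg against 26.2 and 29.9 CPM in Tconv of normal spleen, and 91.9 and 78.2 CPM in Treg against 41.9 and 38.2 CPM in Tconv of TB spleen (−1.55 ± 0.15). In each of these the Treg libraries of normal spleen were several times lower than those of TB spleen. Fam46a (−2.01 ± 0.20), Fosl2 (−1.97 ± 0.25) and Rnf157 (−1.51 ± 0.24) completed the 6 largest, of which Rnf157 lost its call without TB Treg library 2 (adjusted p = 0.0567) or normal Tconv library 2 (adjusted p = 0.0812), and Cx3cr1, at under 4 CPM in normal spleen, was called at −3.86 ± 0.33.

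**Figure D4:**
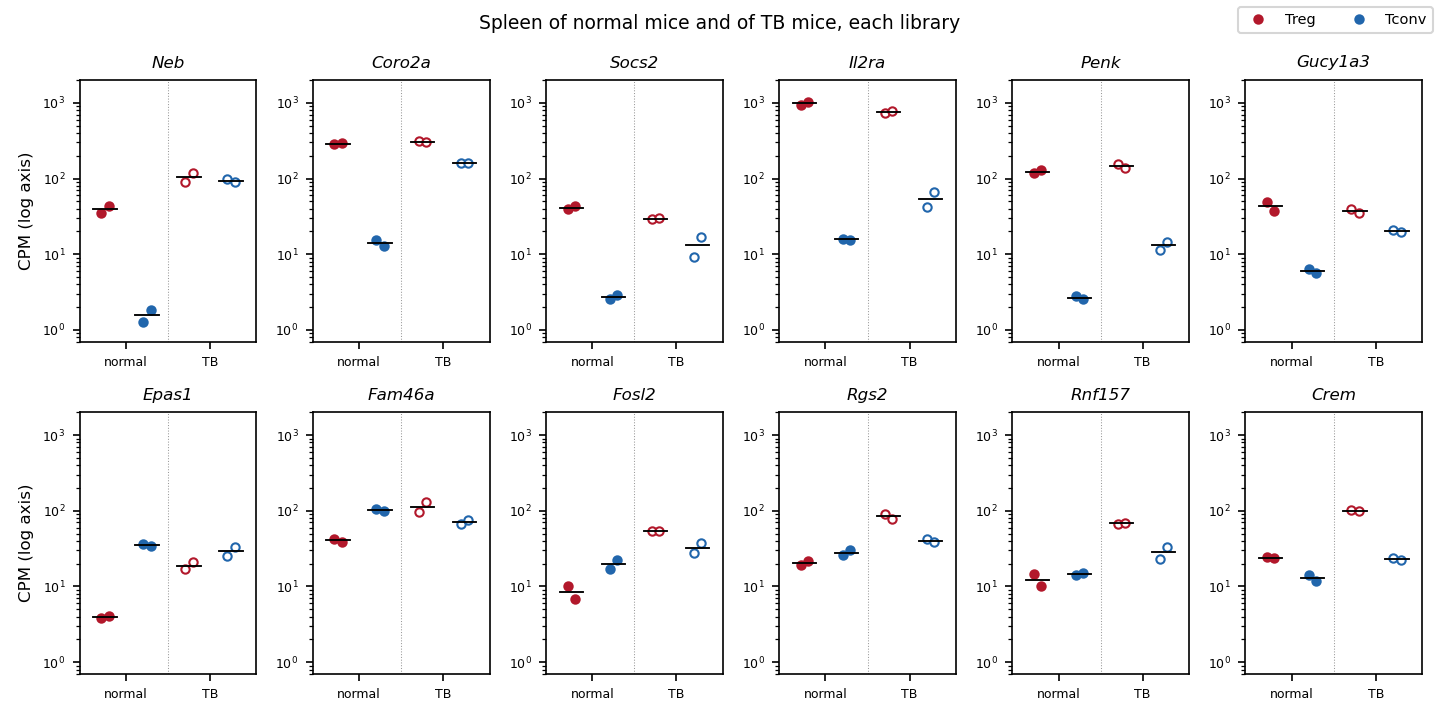
CPM on a log axis in each library of normal spleen (filled) and TB spleen (open), Treg in red left of Tconv in blue. Shown are the 6 largest positive (top) and 6 largest negative (bottom) differences between normal and TB spleen. Bars are means of 2 libraries. In the top row Tconv of normal spleen lies lowest in every panel. In the bottom row the mean of normal spleen Treg lies lowest in every panel but Crem. In Rnf157 the normal spleen Treg libraries overlap those of normal spleen Tconv.

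When it was tested against the difference within the tumour, many more genes were called, 3909 (28.9%), 2240 positive (16.6%) and 1669 negative (12.4%), or 2601 without normal Tconv library 2; the negative ones were then 1026, and 1070 without normal Treg library 1. Of the 475 list members 250 were called (52.6%), 150 positive and 100 negative, and for the same reason no enrichment can be read from this share of chosen genes. Foxp3 was among those called, at −0.70 ± 0.18, adjusted p = 0.0124, so Treg exceeded Tconv by less in normal spleen. In tumour Foxp3 had 1155 and 1246 CPM in Treg against 16.2 and 11.5 CPM in Tconv. Among genes averaging 3 or more on the log2 CPM scale in the 8 libraries concerned, Lrrc32 had the largest positive value (4.92 ± 0.70, adjusted p = 3.13e-04), with 442 and 554 CPM in Treg against 3.16 and 5.99 CPM in Tconv of tumour, so it was higher in Treg at both sites and not near 0 in tumour Tconv. The size of this value rests on 2 and 2 counts in normal spleen Tconv, and that of Sdc4, named next, on 5 and 8. Sdc4 (4.37 ± 0.64), Sh3bgrl2 (4.21 ± 0.30), Neb (4.18 ± 0.31), Plxnb2 (4.07 ± 0.61) and Atp6v0d2 (3.96 ± 0.60) followed, and without tumour Tconv library 2 the values of Sdc4, Plxnb2 and Atp6v0d2 were 3.62, 3.41 and 2.92; without tumour Tconv library 1 that of Atp6v0d2 was 4.56. For Sh3bgrl2 the values were 26.2 and 24.8 CPM in Treg against 1.17 and 1.33 CPM in Tconv of normal spleen, and 14.1 and 15.2 CPM in Treg against 10.6 and 16.1 CPM in Tconv of tumour.

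Cxcr6 and Id2, both lower in Treg of normal spleen, stood out at the negative end. Cxcr6 had 63.8 and 55.2 CPM in Treg against 47.9 and 52.0 CPM in Tconv of tumour (−4.63 ± 0.23, adjusted p = 1.77e-07). Id2 had 675 and 673 CPM in Treg against 144 and 125 CPM in Tconv of tumour (−4.45 ± 0.18, adjusted p = 2.93e-08), where Treg were the higher ones. Fam46a (−4.77 ± 0.21), Plac8 (−4.21 ± 0.45), Pcyt1a (−4.02 ± 0.21) and App (−3.74 ± 0.33) completed the 6 largest. Of 24 naive and homing genes 17 were positive and 4 negative, with Nsg2 at 2.74 ± 0.17 and Tcf7 at 2.55 ± 0.19: they were lower in Treg by less in normal spleen than in tumour. Of 28 interferon response genes 0 were positive and 16 negative, meaning that Treg exceeded Tconv by less, or fell below it by more, in normal spleen. Il1rl1 was positive (3.01 ± 0.60), with 461 and 441 CPM in Treg against 60.1 and 98.6 CPM in Tconv of tumour.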

How the data were processed

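The deposited table gives, per gene, raw read counts made by the authors for the 12 libraries, with no row left out; per the submitters' processing notes STAR, featureCounts and the mm10 build were used, with no version or strand setting given. Groups were taken from the labels. Genes without enough reads were removed with filterByExpr, leaving 13509, and TMM-scaled counts of all 12 libraries were fitted with 6 group means (6 residual degrees of freedom) in edgeR 4.0.16 (R 4.3.3, limma 3.58.1). The quasi-likelihood F test was applied to Treg against Tconv in normal spleen and to the differences between this contrast and those in TB spleen and in tumour, with Benjamini-Hochberg adjustment over all 13509 genes and a threshold of 0.05. The test was checked on simulated counts. Standard errors are the fold change divided by the square root of F. Floors are 3 counts over a group and cover counting error only; reads without molecular identifiers are not independent molecules. Between 20019956 and 23358623 counts per normal spleen library were assigned to genes.

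The 21 gene lists (484 distinct genes) and 10 marker lists of other cells, like the comparison itself, were chosen with earlier results of these data known; of 581 distinct list genes, 576 were found in the table, 4 of them by a synonym. Any list member could be named, called members of larger fold change first; besides, the 15 largest called increases and the 15 largest decreases among genes averaging 3 or more in log2 CPM without overlap between groups were named, and for each difference between sites the 6 largest called values in each direction at that level. Gene models, receptor segments and pseudogenes were passed over in these rankings. Coordinates and exon overlap come from GENCODE vM21, and promoter windows from RefSeq (GRCm38.p6). Python 3.11.15, pandas 2.3.3 and matplotlib 3.10.9 made tables and figures.

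Alternatives were DESeq2 1.42.0, limma-voom, DESeq2 size factors, scaling by library size, other filters on low counts, a robust fit, replicate numbers as a block, fewer libraries in the fit, a test against a 1.5-fold change, and each library left out in turn.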

Additional observations from a re-analysis of the deposited data

Results flagged for a closer look

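The difference between Treg and Tconv was not the same at all sites for a number of genes, by the test of the difference itself. Values are log2 differences in normal spleen minus those at the other site. Against TB spleen 115 genes were called. Positive values, where Treg exceeded Tconv by more in normal spleen or, for Igfbp4, Bcl2 and Bcl2l11, was lower by less, were those of Neb (4.46), Coro2a (3.44), Socs2 (2.76), Il2ra (2.17), Penk (2.04), Gucy1a3 (1.99), Itgb8 (1.83), Bcl2 (1.53), Igfbp4 (1.47), Cish (1.38), Il2rb (1.29), Tnfrsf4 (1.24), Cd83 (1.14), Gpr83 (1.08), Nt5e (0.99), Ctla4 (0.97), Nrp1 (0.94), Socs1 (0.93) and Bcl2l11 (0.66). Negative values were those of Cx3cr1 (−3.86), Epas1 (−2.50), Fam46a (−2.01), Fosl2 (−1.97), Rgs2 (−1.55), Rnf157 (−1.51) and Crem (−1.24).

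Against the tumour 3909 genes were called. Those described were positive for Lrrc32 (4.92), Sdc4 (4.37), Sh3bgrl2 (4.21), Neb (4.18), Plxnb2 (4.07), Atp6v0d2 (3.96), Il1rl1 (3.01), Nsg2 (2.74) and Tcf7 (2.55). They were negative for Fam46a (−4.77), Cxcr6 (−4.63), Id2 (−4.45), Plac8 (−4.21), Pcyt1a (−4.02), App (−3.74) and Foxp3 (−0.70). The sizes of the Lrrc32 and Sdc4 values rest on a few counts in normal spleen Tconv.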

How the results depend on the processing

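The number of genes called between Treg and Tconv in normal spleen kept within 1.5 times 5478 in all fits except those named next. A test against a 1.5-fold change called 1864 genes, 1391 higher and 473 lower, since it asks for larger changes. With the number in the sample description as a replicate block, 2895 were called, 1761 higher and 1134 lower, and 2873 of the 5478 calls (52.4%) were shared; normal Treg and Tconv have 1 such number in common, so that block leaves less to compare, and none was called in the opposite direction. With the title number as a replicate block 5445 were called. Replicates of the same title number deviated together by correlations across genes of 0.0889 in normal spleen, 0.121 in TB spleen and 0.148 in tumour. The main fit did not pair the libraries by any number. Counting error lowers such correlations, so they cannot exclude pairing. Scaling by library size called 5322, 3300 higher and 2022 lower. Without 1 library each, 3955 to 5975 genes were called (2210 to 3132 higher, 1698 to 2870 lower), and at least 2-fold 1246 to 1559 higher and 402 to 544 lower.

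For the difference between normal and TB spleen, DESeq2 called 213 genes (149 positive, 64 negative), no filter on low counts 184 (137 and 47), the 8 spleen libraries alone 320 (243 and 77), and the description number as a replicate block 42 (29 and 13); without 1 library each the count was 42 to 221 (28 to 171 positive, 14 to 50 negative). For the difference between normal spleen and tumour the description block called 1768 (1113 and 655), and without 1 library each the count was 2601 to 4108 (1575 to 2319 positive, 1026 to 1808 negative). The cause of these shifts was not tested. In TB spleen the calls of Itgb8 (adjusted p = 0.0739) and Il2rb (0.0594) were lost in the robust fit, that of Itgb8 (0.283) with limma-voom, and those of Bcl2l11, Gpr83, Il2rb, Itgb8, Nrp1 and Socs1 under the description block (adjusted p of 0.0523 to 0.303). Among the genes described, none that was called changed its direction in any fit. Over all genes, none was called in opposite directions by the main fit and another fit. The medians of the helper lineage factors and of the IL-2 and STAT5 list lie near 0, and they turned positive in several fits, up to 0.04. Among genes not called, Il2rg turned to 0.013 with scaling by library size and to 0.0023 under the description block, and without 1 library each Il2rg ranged from −0.0935 to 0.0018, Ccr9 from −0.0713 to 0.147, Fos from −0.41 to 1.69 and Jun from −0.10 to 1.29. With 2 libraries a group at this depth, genes of a few counts have fold changes that rest on single reads.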

Other observations

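A few genes outside the lists were counted in Treg alone, and they were chosen after their values were seen. Peli2, an adaptor of Toll-like receptor signalling, had 256 and 224 counts in Treg against 0 and 0 counts in Tconv, at least 140-fold higher in Treg taking 3 counts over the Tconv group as the floor, for counting error only. Hgf, the hepatocyte growth factor, had 98 and 72 counts in Treg against 0 and 0 counts in Tconv, at least 49.6-fold higher in Treg. Il1rn, the antagonist of the IL-1 receptor, had 92 and 62 counts in Treg against 0 and 0 counts in Tconv, at least 44.9-fold higher in Treg. Ryr2, a calcium channel of intracellular stores, had 68 and 89 counts in Treg against 0 and 0 counts in Tconv, at least 45.8-fold higher in Treg, and Noxa1, an activator of an NADPH oxidase, 137 and 144 counts in Treg against 0 and 0 counts in Tconv, at least 82.0-fold higher in Treg. Each of these genes was counted in both Treg libraries and in neither Tconv library.

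In Tconv library 1 there were 7 genes with at least 30 counts there and at most 1 count in each of the other 3 normal spleen libraries, 460 counts in all: Sparcl1 (106), Gfap (100), Sparc (95), Ptprz1 (48), Bcan (38), Clu (37) and Gpm6a (36). No other normal spleen library had such a gene by this measure, which was set after the values were seen. Gfap, Bcan and Ptprz1 among them are best known as genes of glia, and their part in other values of that library was not tested.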
